A study of Caenorhabditis elegans with 2 samples.

Results

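The genes described here are 40 genes for the contractile apparatus of Caenorhabditis elegans muscle and its anchorage, out of 19973 protein-coding genes on the nuclear chromosomes. They were chosen by name, with earlier results of these data known. All 40 were found in the Ensembl annotation of WBcel235, the assembly known as ce11. By role, 9 belong to the thick filament, 11 to the thin filament and its regulation, 5 encode giant or immunoglobulin-domain sarcomere proteins, 14 belong to integrin attachments and dense bodies, and 1, hlh-1, encodes a transcription factor. The data are chromatin immunoprecipitation sequencing (ChIP-seq) peak lists for AMA-1, a protein better known as RPB1, which is the catalytic core of RNA polymerase II. The material was whole late embryos of the wild-type strain N2, of both sexes mixed, with no mutation or treatment stated and an age given as unknown. Biological replicates 1 and 2 form 1 group, so no comparison between conditions can be made, and no control library was analysed here. Whole embryos hold every tissue, and a peak does not say which cells it came from. A small share of cells with much polymerase and many cells with little cannot be told apart.

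In nematode body wall muscle, myosin thick filaments centre on M-lines and actin thin filaments are anchored at dense bodies, which correspond to the Z-discs of vertebrate muscle. Both structures reach through integrins to perlecan in the underlying basement membrane, so that each sarcomere pulls on the body wall. Troponin and tropomyosin on the thin filament gate contraction by calcium, and HLH-1, the worm's MyoD, acts in the body wall muscle lineage. RNA polymerase II can dwell at the start of a gene after initiation, along its body during elongation, and beyond the cleavage site at its end before release. A peak therefore shows where polymerase was recovered most and is not a measure of the amount of RNA.

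Each gene was given a window from 500 bp upstream of its annotated start to 500 bp beyond its annotated end, and a peak was counted for it when the peak's summit fell in that window. The replicate lists and the pooled list hold 30000 peaks each, and the joint list thresholded by the irreproducible discovery rate (IDR) holds 476. The height of a peak is the authors' signal value, a score without a stated scale, and rank 1 is the highest peak of a list. Heights ran from 7.09 to 1290 in replicate 1 and from 4.39 to 144 in replicate 2. A height printed beside a rank therefore describes its own list, and between replicates only ranks were compared. Read depth is unknown for both libraries. Each of the 476 IDR peaks has the position of 1 of the 476 highest pooled peaks.

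High peaks stood at 11 muscle genes in replicate 1 and at 4 others in replicate 2. In the IDR list 4 of 40 members had a summit, where 2.44% of all protein-coding genes had one. They were cpn-3, pat-4, tni-1 and unc-54. Among the 1000 highest pooled peaks 9 members had a summit (22.5%, against 4.94% of all genes), the further ones being dim-1, hlh-1, mlc-1, mlc-3 and pat-10. Among the 1000 highest of replicate 1 there were 11 (27.5%, against 5.06%), namely cpn-3, dim-1, lev-11, mlc-1, mlc-3, myo-3, pat-10, pat-4, pat-6, tni-1 and unc-54. Among the 1000 highest of replicate 2 there were 4 other members (against 4.76% of all genes), deb-1, mup-2, unc-60 and unc-89. Thus 0 of 40 members had a summit among the 1000 highest of both replicates, a count that allows up to 7.50%, where 1.93% of all genes did. With the 2000 highest of each replicate 6 of 40 members were in both, where 3.81% of all genes were. They were cpn-3, deb-1, hlh-1, lev-11, tni-1 and unc-60. These counts are by gene window and do not ask that the summits lie at the same place. At cpn-3, hlh-1 and tni-1 peaks among the 2000 highest of each replicate overlapped. At deb-1, lev-11 and unc-60 the highest summits of the replicates lay at different places.

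Muscle genes are long, with a median of 5698 bp against 2027 bp for all protein-coding genes, and a longer window catches more summits. Among genes of 2262 to 9227 bp, the interquartile range of the members, 6 of 20 members had a summit among the 1000 highest of replicate 1 (30.0%), against 6.05% of all 7733 genes of that length. For replicate 2 the values were 2 of 20 and 5.59%. In the whole lists, which reach far into weak peaks, 37 members had a summit in each of the pooled, replicate 1 and replicate 2 lists (92.5%), where 49.6%, 46.6% and 61.3% of all genes did. Genes of like length were not counted for the whole lists, so these shares do not set the members apart from other long genes.

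**Figure D1:**
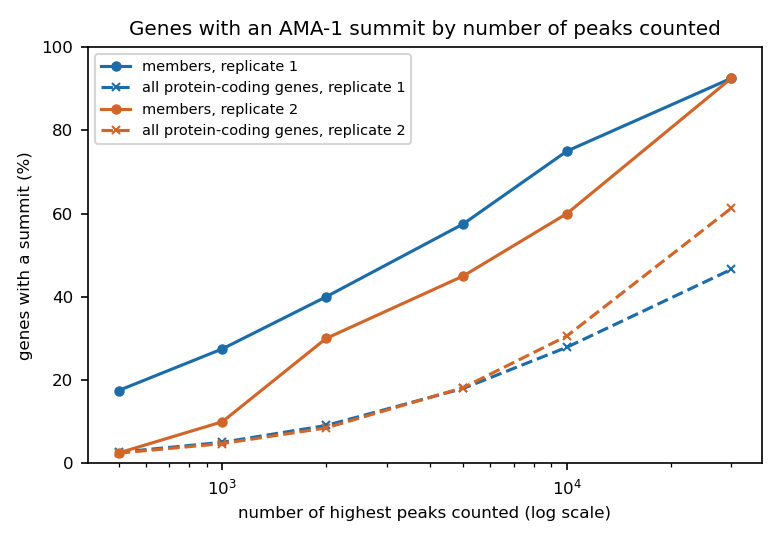
The share of genes with a summit (y axis, %) is plotted against the number of highest peaks counted (x axis, log scale), for the 40 members (solid lines) and all protein-coding genes (dashed lines) in each replicate. At the 500 highest peaks the members stand at 17.5% in replicate 1 and 2.50% in replicate 2, and both member lines reach 92.5% with all 30000 peaks.

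The high peaks of replicate 1 at muscle genes lay mostly near the annotated ends of these genes. All 11 members with a summit among its 1000 highest had one within 250 bp of the annotated end. They are 27.5% of the 40 members, where 2.15% of all genes had such an end summit. Of the 1010 protein-coding genes with a summit among its 1000 highest, 429 had one within 250 bp of the end. Of the 14 member summits among its 1000 highest, 11 were near an end (78.6%), 1 was near a start, that in cpn-3, and 2 were inside pat-10. But 6 of the 14, all end summits, also lay in the window of another protein-coding gene. Those at unc-54, tni-1 and pat-6 were near that gene's start, and those at pat-4 and mlc-1 near its end. The summit at lev-11 was upstream of that gene. These 6 cannot be credited to the muscle gene alone. Over all protein-coding genes, 33.4% of the gene-summit pairs of that list were near an end and 19.3% near a start. The end summits lay 57 to 230 bp beyond the annotated end in 9 members, and 64 bp and 163 bp inside it in dim-1 and mlc-1. Near starts, 1 of 40 members had a summit among the 1000 highest of replicate 1 (2.50%), against 1.24% of all genes.

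In replicate 2 none of the 40 members had one of the 1000 highest summits within 250 bp of the end (0.636% of all genes did) or of the start (1.22% of all genes did). With shares so low a count of 0 does not set the members apart from other genes. Among the 5000 highest of replicate 2, 2 members had a summit within 250 bp of the end (2.78% of all genes did), and among the 2000 highest 4 members had one within 500 bp of it (2.93% of all genes did). Its 6 highest member summits lay inside deb-1, mup-2, unc-89 and unc-60 and in the flanks of unc-60. Of the 11 end peaks of replicate 1, 6 overlapped no peak of replicate 2 at all, and the other 5 overlapped peaks at ranks 1595, 3298, 3431, 16885 and 22165. Of the 1000 highest replicate 1 peaks over the whole genome 20.1% overlapped no peak of replicate 2, and of those near a gene end 23.6%. Over all genes, end summits were fewer among the high peaks of replicate 2. Of the gene-summit pairs of its 1000 highest peaks 11.5% were near an end, against 33.4% in replicate 1. Over all 30000 peaks of each list the shares were 10.7% and 15.1%. The part that this general difference plays at the muscle genes was not tested.

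**Figure D2:**
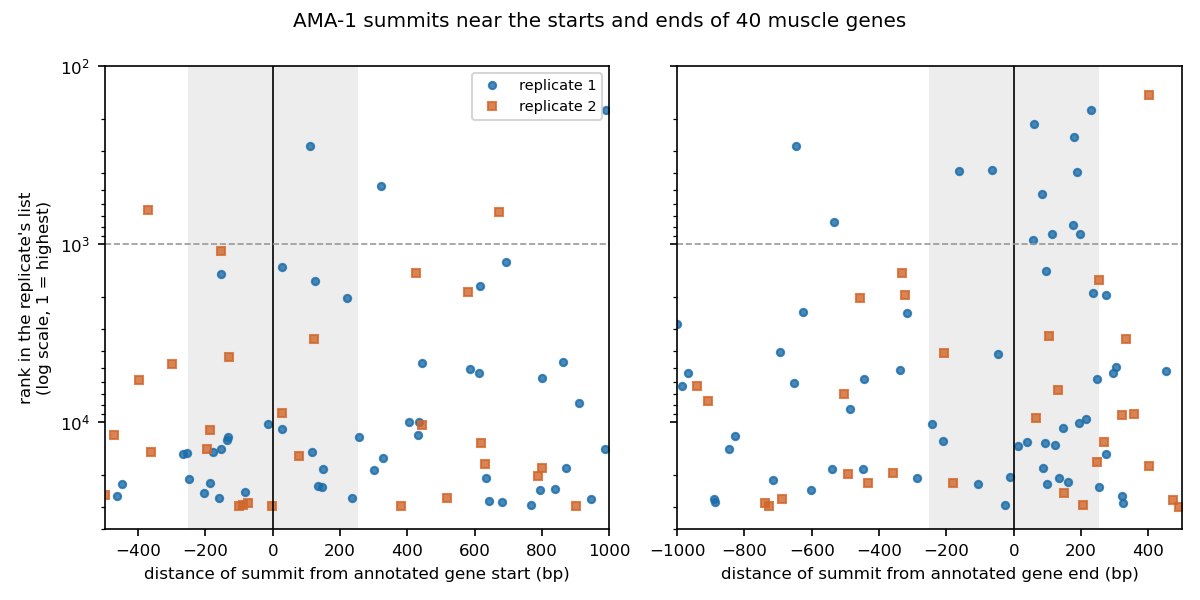
Each point is a summit in a member's window, placed by its distance in bp from the annotated start (left) or end (right) along the gene's strand and by its rank (y axis, log scale, highest at the top). The shaded band is 250 bp to either side and the dashed line marks rank 1000. Of the replicate 1 points above that line 11 fall in the band at the end, and no replicate 2 point above it falls in either band; summits of short genes appear in both panels.

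The stretches just beyond 5 of these genes are printed to show the DNA over which polymerase was recovered. They run 5′ to 3′ on the gene's own strand from the first base after the annotated end to the next annotated exon, or for 200 bases at mlc-3 and 250 bases at myo-3, and carry in capitals the 21 bases centred on the replicate 1 summit. They lie at chrIII:89244-89452 (pat-4, minus strand), chrX:11375610-11375886 (tni-1, minus strand), chrIII:5567383-5567582 (mlc-3, plus strand), chrV:12226567-12226816 (myo-3, minus strand) and chrIV:261684-261885 (pat-6, minus strand), all on ce11, read from the RefSeq sequence of the same assembly.
pat-4: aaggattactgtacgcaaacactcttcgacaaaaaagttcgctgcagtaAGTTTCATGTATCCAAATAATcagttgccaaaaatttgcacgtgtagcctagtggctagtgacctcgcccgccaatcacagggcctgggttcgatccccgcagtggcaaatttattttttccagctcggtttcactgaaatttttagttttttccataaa
tni-1: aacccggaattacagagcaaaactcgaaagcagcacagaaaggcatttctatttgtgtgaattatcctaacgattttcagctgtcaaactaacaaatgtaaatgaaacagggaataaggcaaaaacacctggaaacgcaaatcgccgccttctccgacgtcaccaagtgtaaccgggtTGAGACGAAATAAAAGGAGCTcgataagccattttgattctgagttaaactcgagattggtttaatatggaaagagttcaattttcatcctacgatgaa
mlc-3: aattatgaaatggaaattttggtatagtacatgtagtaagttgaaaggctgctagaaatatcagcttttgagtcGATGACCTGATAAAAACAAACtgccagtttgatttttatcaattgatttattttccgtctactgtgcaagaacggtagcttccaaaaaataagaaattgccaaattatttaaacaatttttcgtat
myo-3: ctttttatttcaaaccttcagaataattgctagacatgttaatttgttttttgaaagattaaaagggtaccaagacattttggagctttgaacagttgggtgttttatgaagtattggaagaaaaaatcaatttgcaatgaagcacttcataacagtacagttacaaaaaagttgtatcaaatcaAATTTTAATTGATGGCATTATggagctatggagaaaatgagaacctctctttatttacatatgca
pat-6: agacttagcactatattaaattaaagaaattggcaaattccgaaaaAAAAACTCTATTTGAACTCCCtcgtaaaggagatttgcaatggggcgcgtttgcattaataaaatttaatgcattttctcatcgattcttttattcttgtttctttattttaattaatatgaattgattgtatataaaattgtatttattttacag

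These stretches differ in what lies next to them. The pat-4 stretch is the whole gap of 209 bases between pat-4 and mrpl-40, a mitochondrial ribosomal protein gene whose own end faces it, so the peak lies at both ends. The tni-1 stretch, 277 bases, leads into F42E11.3 on the same strand, and the summit was 189 bp beyond tni-1 and at -89 bp from the start of F42E11.3. The pat-6 stretch, 202 bases, leads in the same way into pqbp-1.1, with the summit 57 bp beyond pat-6 and at -146 bp from the start of pqbp-1.1. The summits beyond mlc-3 and myo-3 fell in no other protein-coding window. The GC content was 25.7% over the pat-6 stretch, 29.6% over myo-3, 30.0% over mlc-3, 39.7% over tni-1 and 42.6% over pat-4. None of the high member summits lay within 250 bp of a non-coding gene. The share of all high peaks near such a gene was not counted, so this does not set the members apart.

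The stretch beyond pat-4 holds, from base 138, a match to GTTCGANNC, the core of the B box inside tRNA genes, which are transcribed by RNA polymerase III. The nearest annotated tRNA gene lies 445929 bp from the end of pat-4. In windows of 201 bp the core was at 2 of the 14 high replicate 1 member summits, those of pat-4 and pat-10, and at 2.40% of all 1000. This motif was chosen after the sequence had been seen.

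Of the 9 thick filament genes, 4 had an end summit among the 1000 highest of replicate 1, unc-54, myo-3, mlc-1 and mlc-3. The body wall myosin heavy chains are UNC-54 and MYO-3. At unc-54 (chromosome I, 14855901 to 14863482, minus strand) the highest summit lay 180 bp beyond the end in replicate 1 (rank 251, height 50.6), and in replicate 2 the overlapping peak stood at rank 16885 (height 6.08). The summit also lay 106 bp inside the coding sequence of aex-5, the next gene on the same strand, so the end of unc-54 and the start of aex-5 cannot be told apart. A further unc-54 summit within 250 bp of its start had rank 1357 in replicate 1 and rank 8909 in replicate 2. At myo-3 (chromosome V, 12226817 to 12234343) the end peak had rank 877 in replicate 1 (height 32.9) and no counterpart in replicate 2, where the best summit was in coding sequence at rank 6360 (height 8.70). Both genes were thus high in replicate 1, myo-3 at its end and unc-54 where its end and the start of aex-5 lie together.

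Among the light chains, mlc-1 (chromosome X, 17459210 to 17460778), which encodes a regulatory myosin light chain, had an end summit at rank 391 in replicate 1 (height 42.6) and its best replicate 2 summit at -130 bp from the start, at rank 4318 (height 9.71). That end summit lies in the 3′ UTR and 163 bp beyond the end of slc-17.1, which runs towards mlc-1. Its neighbour mlc-2, which encodes the near-identical light chain, ranked 9578 in replicate 1 and 4719 in replicate 2. At mlc-3, for the essential light chain, the end summit ranked 522 in replicate 1 (height 38.6), while the best replicate 2 summit lay 123 bp inside the start at rank 3438 (height 10.3). The replicate 1 start summit of mlc-3 ranked 1607, so mlc-3 had peaks at its start and at its end in replicate 1. The pooled summit at that start also lay 309 bp beyond the end of rpc-2, on the same strand.

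The remaining thick filament genes ranked lower than unc-54, myo-3, mlc-1 and mlc-3 in replicate 1, but in replicate 2 the highest of all 9 was myo-2. At unc-15, which encodes paramyosin, the best summits were in coding sequence at rank 2052 in replicate 1 (height 25.3) and at -363 bp from the start at rank 14809 in replicate 2 (height 6.44). At unc-45, for the myosin chaperone, they ranked 11440 and 7881. The pharyngeal myosin heavy chain genes myo-1 and myo-2 had almost no peaks in replicate 1. Over the 8112 bp of myo-1 it had no summit, and replicate 2 had 1, at rank 15617 (height 6.28). At myo-2 replicate 1 had 1 summit at rank 20751 (height 9.41), but replicate 2 had 4, the highest in coding sequence at rank 1330.

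On the thin filament, cpn-3 (chromosome I, 3987940 to 3988699, plus strand), which encodes a calponin-like actin-binding protein and is the shortest member at 760 bp, had the highest peak of the role in the pooled and replicate 1 lists, while in replicate 2 unc-60 and mup-2 ranked higher. Its summit 230 bp beyond the end was rank 177 in replicate 1 (height 58.4) and overlapped a peak at rank 3431 in replicate 2 (height 10.3). Its second IDR summit, in an intron 111 bp from the start, was rank 282 in replicate 1 (height 48.9) and overlapped a peak at rank 1451 in replicate 2 (height 12.7). It was the only member with 2 IDR summits, and neither lay in another protein-coding window. At tni-1 (chromosome X, 11375887 to 11377470), for a troponin I, the peak beyond the end ranked 397 in replicate 1 (height 42.4) and the overlapping peak 1595 in replicate 2 (height 12.4). Of the 11 members with a high end peak in replicate 1, cpn-3, tni-1 and pat-4 were those whose end peak overlapped one of the 5000 highest of replicate 2.

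The troponin genes differed widely among themselves. At pat-10 (chromosome I, 5018783 to 5020358), for the body wall troponin C, replicate 1 had 3 summits among its 1000 highest, in an intron at rank 473 (height 39.8), in coding sequence at rank 752 (height 34.6) and 177 bp beyond the end at rank 783. Replicate 2 had no summit anywhere in that window. At tnc-2, for the pharyngeal troponin C, replicate 1 had no summit and replicate 2 had 1 at rank 15540 (height 6.30). At mup-2, for a troponin T, replicate 2 was the higher by rank. Its best summit had rank 4170 in replicate 1 (height 19.8, in the 3′ UTR) and rank 659 in replicate 2 (height 15.1, in coding sequence). That replicate 2 peak overlapped a replicate 1 peak at rank 15942 (height 11.1) and no peak of the pooled list, where the best mup-2 rank was 19858. The other troponin T genes were low, with tnt-3 at ranks 5203 and 18485 and tnt-2 (chromosome X, 8721546 to 8723550) without a summit in any list, the only such member. The troponin I gene unc-27 ranked 10086 in replicate 1 and 5845 in replicate 2.

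Tropomyosin and the actin filament regulators were also not alike. At lev-11, for tropomyosin, the end summit 113 bp beyond the gene ranked 879 in replicate 1 (height 32.9), and in replicate 2 the best summit lay in a 3′ UTR at -323 bp from the end, at rank 1930 (height 11.9). The end summit also lay in the window of Y105E8B.11, at -419 bp from its start. The gene held 17 summits in replicate 1 and 7 in replicate 2. At unc-60 (chromosome V, 1475086 to 1479576), which encodes ADF/cofilin isoforms, replicate 2 had 3 summits among its 1000 highest, 401 bp beyond the end at rank 145 (height 21.3), in an intron at rank 617 (height 15.4) and at -370 bp from the start at rank 646 (height 15.2). The last of these is also upstream of F53E2.2. The first and the second of these overlapped no peak of replicate 1, whose best summit was in an intron at rank 1309 (height 29.1). At the rank 145 peak only 68.1% of the 31-base words occur once in the genome, and at the rank 617 peak 86.8%. At unc-78, for the actin-interacting protein that works with cofilin, the best summits ranked 18487 and 20127.

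Of the 5 genes for giant or immunoglobulin-domain proteins, 1 was among the 1000 highest of replicate 1 and another among those of replicate 2. At dim-1 (chromosome X, 8050466 to 8058220), for an immunoglobulin-domain protein that stabilises the filament lattice, the end summit ranked 384 in replicate 1 (height 43.0), in the 3′ UTR, and overlapped no peak of replicate 2, whose best summit was in an intron at rank 14326 (height 6.53). At unc-89, for the M-line protein obscurin, the best summit of replicate 2 lay in an intron at rank 649 (height 15.2), in the coding sequence of clec-89 on the other strand, and the best of replicate 1 in coding sequence at rank 5428. The titin-like genes ttn-1 and ketn-1 and the twitchin gene unc-22 were best in replicate 2 as well, at ranks 1768, 3364 and 3014, against 4521, 9389 and 5758 in replicate 1. In 4 of these 5 genes, all but dim-1, the better rank was thus in replicate 2, whereas over the 35 members with a summit in both replicates 21 ranked better in replicate 1 and 14 in replicate 2.

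At the integrin attachments, pat-4 and pat-6 led in replicate 1. At pat-4 (chromosome III, 89453 to 94809), which encodes the integrin-linked kinase, the summit 60 bp beyond the end ranked 212 in replicate 1 (height 54.2), and the overlapping replicate 2 peak ranked 3298 (height 10.4). In both replicates the highest pat-4 summit thus lay within 250 bp beyond its end. At pat-6 (chromosome IV, 261886 to 264232), for the parvin that binds PAT-4, the end summit ranked 945 in replicate 1 (height 32.1) and had no counterpart in replicate 2, where the best summit was in coding sequence at rank 6274 (height 8.74). At unc-112, for kindlin, an end summit ranked 1416 in replicate 1 and 9544 in replicate 2. The integrin genes themselves were lower, with pat-3 (beta subunit) at ranks 1796 and 16839 and pat-2 (alpha subunit) at ranks 5132 and 14258, and unc-97, for the PINCH adaptor of the same complex, stood at ranks 5031 and 13184.

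At the dense body, deb-1, which encodes vinculin, had its best replicate 2 summit in coding sequence at rank 899 (height 14.1), which overlapped a replicate 1 peak at rank 11028, while the best of replicate 1 was 236 bp beyond the end at rank 1898 (height 25.9). The intron peak of zyx-1, for zyxin, was at a like position in both replicates, 12462 bp from the start at rank 2317 in replicate 1 (height 24.3) and 12414 bp from it at rank 1547 in replicate 2 (height 12.5). At atn-1, for alpha-actinin, replicate 1 had a best rank of 15122 and replicate 2 no summit. The LIM-domain genes alp-1 and lim-9 ranked 2437 and 3322 in replicate 1 and 13653 and 11016 in replicate 2. The M-line and attachment genes unc-95 and unc-98 were low in both, at ranks 12116 and 10676 in replicate 1 and 29622 and 18271 in replicate 2. At unc-52, for the perlecan of the muscle basement membrane, replicate 2 reached rank 1034 (height 13.7) and replicate 1 rank 2753, each inside the gene.

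**Figure D3:**
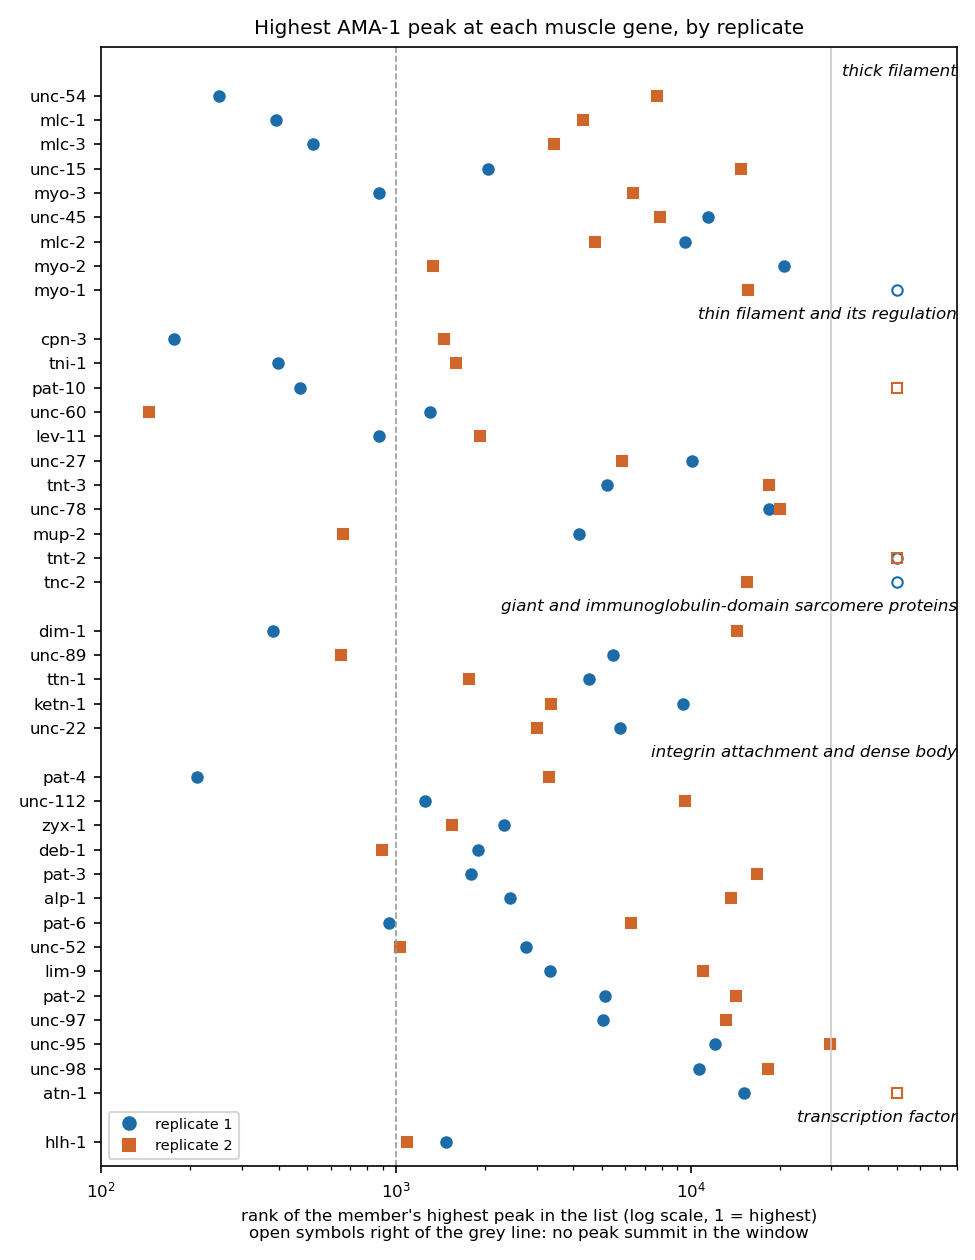
For each of the 40 members the rank of its highest peak is plotted (x axis, log scale, 1 = highest) in replicate 1 (circles) and replicate 2 (squares), grouped by role and sorted by pooled rank. Open symbols mark a list without a summit in the window, and the dashed line is rank 1000. Replicate 1 has 11 members left of that line and replicate 2 has 4, with no member in common.

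The muscle regulator hlh-1 (chromosome II, 4518574 to 4522528, plus strand) was the 1 member whose highest summit lay at the promoter in both replicates. The summit was at -155 bp from the start at rank 1482 in replicate 1 (height 28.0) and at -153 bp at rank 1090 in replicate 2 (height 13.6). In the pooled list it was at -192 bp at rank 530 (height 48.1), outside the IDR list. The replicates thus placed it almost at the same base, below the 1000 highest of each.

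The 250 bases upstream of hlh-1 (chrII:4518324-4518573, plus strand, ce11, RefSeq sequence) are printed because they hold all these summits. Capitals mark the matches to CANNTG, the E-box that basic helix-loop-helix proteins such as HLH-1 bind.
hlh-1: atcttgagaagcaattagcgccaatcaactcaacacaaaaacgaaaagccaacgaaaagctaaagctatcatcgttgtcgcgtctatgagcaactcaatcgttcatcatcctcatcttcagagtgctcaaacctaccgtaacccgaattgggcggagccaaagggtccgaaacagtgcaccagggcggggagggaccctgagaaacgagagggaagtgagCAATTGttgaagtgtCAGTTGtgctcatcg

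There were 2 E-box matches, CAATTG with its first base at -30 bp and CAGTTG with its first base at -15 bp from the start, both nearer the gene than the summits. At least 2 matches were found upstream of 24.1% of all protein-coding genes, so this number does not set hlh-1 apart. Over the 40 members 17 had a CANNTG match in the 250 bp upstream (42.5%, against 59.4% of all genes) and 0 had CAGCTG (4.29% of all genes). TATAAA, a form of the TATA box, was upstream of 5 members (12.5%, against 35.2%), and AATAAA, searched because it is the signal for cleavage of the RNA at gene ends, upstream of 15 (37.5%, against 57.7%). Every motif was counted on both strands, and CAGCTG is 1 form of CANNTG.

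Around the 12 member summits among the 1000 highest pooled peaks, windows of 201 bp held CANNTG at 6 (50.0%, against 60.6% of all 1000 windows), AATAAA at 6 (50.0%, against 25.2%), TATAAA at 3 (11.1% of all) and CAGCTG at 0 (5.90% of all). Around the 5 IDR member summits CANNTG was at 3 (63.9% of all 476) and AATAAA at 2 (23.1% of all). Around the 14 high replicate 1 member summits they held AATAAA at 6 (42.9%, against 27.7% of all 1000 windows), CANNTG at 8 (57.1%, against 62.1%), TATAAA at 3 (21.4%, against 13.7%) and CAGCTG at 0 (5.10% of all). Their median GC content was 36.8%, against 40.8% for all 1000. The 6 high replicate 2 member summits had a median of 48.0%, against 44.3%, with CANNTG at 4 (57.1% of all 1000) and AATAAA at 1 (23.5% of all). The GC contents of the member windows ran from 25.9 to 46.8% in replicate 1 and from 42.3 to 55.2% in replicate 2.

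Over the whole pooled list muscle gene windows held 0.581 summits per kb, against 0.354 over the windows of all protein-coding genes merged. In replicate 1 the values were 0.669 and 0.356, and in replicate 2 they were 0.405 and 0.338. By member, 34 of 40 were above the value for all genes in replicate 1 and 27 in replicate 2. The share of single genes above it was not counted over all genes, so these counts do not set the members apart. A short gene can pass the value with 1 summit, as unc-27 did in replicate 1 (0.462 per kb). The densest was tni-1 in replicate 1, with 1.93 summits per kb.

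The long genes differed among themselves in the number of summits. Over the 37136 bp of unc-52 there were 36 summits in replicate 1 and 23 in replicate 2 (0.944 and 0.603 per kb). In contrast unc-22, of 38311 bp, held 2 in replicate 1 and 8 in replicate 2 (0.0509 and 0.204 per kb), and its best summit in replicate 1 was 246 bp beyond the end. The longest member, ttn-1, with 81724 bp, held 25 and 19 (0.302 and 0.230 per kb), and unc-89, with 55184 bp, held 38 and 23 (0.676 and 0.409 per kb). Of these, only unc-52 and unc-89 exceeded the value for all genes in both replicates.

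**Figure D4:**
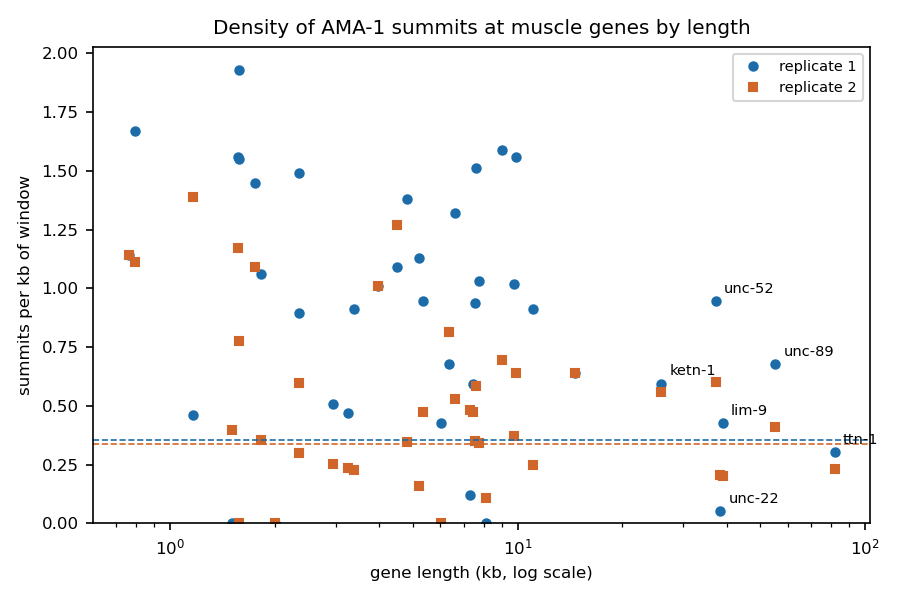
Summits per kb of window (y axis) are plotted against gene length (x axis, kb, log scale) for each member in replicate 1 (circles) and replicate 2 (squares). Dashed lines give the values for all protein-coding genes, 0.356 in replicate 1 and 0.338 in replicate 2. Among the 6 longest members unc-52 lies well above both lines and unc-22 below them.

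Most peaks described here can be placed. The high member peaks of the IDR and replicate lists and each member's best pooled peak were examined, 62 list entries in all. A place was counted once for each list that holds it, so several places, such as that beyond cpn-3, count more than once. Of these entries 57 had every 31-base word once in the genome, and the other 5 were at unc-60 (3 entries), tnt-3 and unc-52. The peaks examined at mlc-1 and mlc-2, whose proteins are alike, were among the 57.

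Other gene lists of muscle were counted in the same way, beside the 2.44% of all genes with an IDR summit. A list with 1 gene or none in the IDR list is not set apart by that count. For these, positions are those of the pooled summit and the pairs of ranks are the best in replicates 1 and 2. Of 5 actin genes act-2 and act-4 had IDR summits, act-4 123 bp beyond its end with ranks 90 and 155, and act-2 328 bp beyond its end with ranks 262 and 25259. Of 23 further sarcomere genes nmy-2, a non-muscle myosin gene, had an IDR summit 143 bp beyond its end, with ranks 2724 and 180, while cap-1, for an actin capping subunit, ranked 326 and 28398. Of 26 excitation-contraction genes only crt-1, for the calcium store protein calreticulin, had an IDR summit, at ranks 31 and 394 and 159 bp beyond the end, and the acetylcholine receptor gene acr-16 ranked 8271 and 538. Of 10 dystrophin complex genes dyc-1 had one beyond its end, with ranks 201 and 1076, and stn-1, for a syntrophin, ranked 1931 and 3123. Of 16 basement membrane and fibrous organelle genes lam-1, for laminin, had one 94 bp beyond the end, with pooled rank 51 and rank 20 in replicate 2, and vab-10, for a spectraplakin, had one in coding sequence at ranks 399 and 676. Of 13 genes listed as regulators of muscle and related lineages none had an IDR summit. The highest were egl-46 at ranks 351 and 309 and egl-44 at ranks 681 and 7614, both known for roles in neurons. Of the genes in these lists act-4, crt-1, lam-1, vab-10 and egl-46 were thus among the 1000 highest of both replicates, where 1.93% of all genes were. Of the 40 members 0 were, and with a share so low this count does not set the members apart.

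Marker genes of other tissues were counted in the same way, which does not say which cells a peak came from. Of 15 epidermal markers 4 had an IDR summit (2.44% of all genes did), sqt-3, dlg-1, hmr-1 and dpy-7. Among the 1000 highest of both replicates were 4 (1.93% of all genes were), sqt-3, dlg-1, lin-26 and hmr-1. The collagen gene sqt-3 ranked 35 and 474, and the junction gene dlg-1 ranked 236 and 113. Of 14 intestinal markers 0 had an IDR summit or one among the 1000 highest of either replicate. Of all genes 5.06% had one among the 1000 highest of replicate 1 and 4.76% of replicate 2. With shares so low, 0 of 14 does not set these markers apart. The best were lys-8 at ranks 1299 and 6223 and asp-1 at rank 2039 in replicate 1. Of 15 pan-neuronal markers none had an IDR summit, with snb-1, for synaptobrevin, at ranks 586 and 1706 and maco-1 at ranks 2190 and 818. Of 15 germline markers him-3, for a meiotic chromosome axis protein, had one, at ranks 275 and 8225, and gld-1 came next at ranks 4241 and 11958. Differences between these lists were not tested.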

How the data were processed

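ChIP-seq peak lists for AMA-1 from 2 biological replicates of whole late embryos were used. As the deposited notes describe it, the authors derived 1 relaxed list per replicate from its own alignments plus 1 other file, a pooled list from both sets of alignments, and the IDR list from those 3. The peak score in column 7 was deposited by the authors with no stated scale. Here it orders and describes the peaks of 1 list at a time. For the aligner, the caller, the thresholds and the read depth nothing is given in the sources used here. The lists on ce11 were used, with Ensembl release 115 genes and RefSeq sequence of the same assembly. The lists on ce10 were not used here. All coordinates are 1-based.

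Summits were assigned to windows with a flank of 500 bp, in Python 3.11.15 with numpy 2.4.6 and pandas 2.3.3. A summit could count for several genes. Near a start or an end means within 250 bp. The assignment was tested on simulated data. Since there is 1 group and no control, no statistical test was made, and counts stand beside the share of all protein-coding genes. The members and gene lists were chosen with earlier results of these data known. Named genes were all members with a summit in the IDR list or among the 1000 highest of either replicate, the 3 highest of each role, those without a summit in any list and the 2 highest of each other list. The rest of the members and lin-26, act-2 and the remaining IDR genes of the other lists were named so that every member or count is accounted for. The other sarcomere and intestine lists lost tmd-1, tnc-1 and opt-2, which matched no gene name.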

Additional observations from a re-analysis of the deposited data

How the results depend on the processing

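Many of the counts turned on 1 library. With as many highest peaks of 1 replicate as the IDR list holds, leaving out 1 replicate in turn, 1 to 7 members had a summit in place of 4 (2.35 and 2.55% of all genes). The number near an end among the 1000 highest pooled peaks, 7 in the pooled list, ran from 0 without replicate 1 to 11 without replicate 2 (0.636 and 2.15% of all genes, against 1.93%). The median best rank was 3304 in the pooled list and 2437 to 5845 with 1 replicate left out. The density in summits per kb ran from 0.405 to 0.669 about 0.581. High member summits with CANNTG were 6 of 12 in the pooled list (50.0%), 8 of 14 without replicate 2 (57.1%) and 4 of 6 without replicate 1 (66.7%). The count thus moved with the number of summits.

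The 4 members with an IDR summit (2.44% of all genes) became 2 in the highest 238 IDR peaks (1.24%), 9 in the 952 highest pooled peaks (4.75%), 1 with gene bodies only (1.13%), 1 without the downstream flank (1.52%) and 2 with the nearest gene only (1.70%). They were 3 with flanks of 250 bp (1.97%) and 4 when an overlap of 1 bp was enough (2.52%). The 0 members among the 1000 highest of both replicates (1.93% of all genes) were also 0 with the 500 highest (0.946%) and with each other window (0.911 to 1.45%), and 6 with the 2000 highest (3.81%). The density was 0.104 with the 5000 highest pooled peaks, against 0.0608 over all genes. The end count of 7 became 2 within 100 bp (0.436% of all genes), 3 with the 500 highest peaks (1.09%), 8 within 500 bp (3.06%) and 9 with the 2000 highest (3.23%), settings chosen after the data had been seen. The length range and the single-replicate values other than for the IDR count were also chosen then. Where these values moved, the cause was not tested, beyond the fewer peaks or shorter windows that a setting itself brings. No paired analysis was possible because both replicates belong to 1 group. With 2 libraries of unknown depth, a missing peak does not show that AMA-1 is absent.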
